A study of Mus musculus with 64 samples.

Results

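Collagen genes were followed through the brain transcriptomes of lean mice given the serotonergic psychedelic psilocybin or vehicle. The set held every protein-coding gene whose symbol has the form Col, a type number, the letter a and a chain number, which gave 44 genes of the 55401 in the deposited table. Of these, 11 were fibrillar chains, 6 were basement membrane (type IV) chains, 6 were beaded filament (type VI) chains, 3 formed other networks (types VIII and X), 9 were fibril-associated (FACIT) chains, 4 spanned the membrane, 2 were multiplexins and 3 belonged to none of these. Across these classes, 6 chains (Col11a1, Col19a1, Col23a1, Col24a1, Col25a1 and Col27a1) were also described together as chains known to be expressed by neurons.

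The mice were group-housed male C57BL/6J animals on chow, aged 10 weeks when they received 1 intraperitoneal injection of psilocybin at 3 mg/kg or of isotonic saline. Hypothalamus and prefrontal cortex (PFC, labelled frontal cortex in part of the sample labels) were taken from the same 32 mice, 3 h or 4 weeks later, which gave 8 groups of 8 libraries. The mice harvested at 4 weeks were also older, so time after injection, age and harvest occasion cannot be told apart. All animals were males of 1 inbred strain, and each library was bulk tissue, in which fewer cells of a type and less RNA per cell cannot be told apart. RNA was extracted in pools that never mixed the regions (A and B for hypothalamus, C and D for PFC), so region and pool cannot be told apart either, but every treatment and harvest was present in each pool. With 2 libraries of 200066 and 211111 counts left out, 62 remained (the study's methods left out 1 further library, not named there, for its enrichment in genes of wound healing and immunity), 31 per region, with totals of 8061033 to 70361839 counts (median 18287978.5). Summed markers of cortical excitatory neurons lay at 1430 to 2060 CPM (counts per 1000000 counts of the library) in PFC and 99.4 to 217 CPM in hypothalamus, and the summed hypothalamic markers at 1.25 to 23.0 CPM in PFC and 386 to 2810 CPM in hypothalamus, so each region carried its defining genes.

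Collagens are matrix proteins in which chains wind around one another into a stiff helix. Fibrillar types I and III give tensile strength and are made in the brain mainly by fibroblasts of the meninges and vessel walls, while type IV builds the basement membrane beneath the endothelium and the pial surface. Type VI forms beaded filaments beside basement membranes, FACIT chains decorate fibrils or sit at basement membranes, and the transmembrane types XXIII and XXV occur on neurons. Newly made chains are hydroxylated on proline and lysine in the endoplasmic reticulum, folded with the chaperone Hsp47, trimmed by secreted proteases and crosslinked by lysyl oxidases.

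Genomic sequence just before the start of a few fibrillar genes is shown first, since these chains share a protein architecture and yet gave the contrasting patterns described below. RefSeq held promoter windows for 35 of the 44 genes, 38 windows in all, cut here to the 250 bases before each start. The 4 windows below are of the GRCm38.p6 build, on the plus strand, 5′ to 3′, and contain no annotated exon: Col3a1 at chr1:45311288-45311537, Col5a1 at chr2:27886175-27886424, Col11a1 at chr3:114030290-114030539 and Col24a1 at chr3:145292222-145292471. Capitals mark the letters TATAAA of a TATA box core, the letters of a CCAAT box, or the letters GGGCGG of a GC box, each searched on both strands, so that a match to the opposite strand appears as its reverse complement.
Col3a1: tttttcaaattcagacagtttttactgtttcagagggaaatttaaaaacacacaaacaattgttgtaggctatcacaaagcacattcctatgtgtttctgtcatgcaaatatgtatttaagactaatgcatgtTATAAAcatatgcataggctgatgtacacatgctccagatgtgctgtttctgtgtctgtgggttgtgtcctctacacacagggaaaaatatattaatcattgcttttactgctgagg
Col5a1: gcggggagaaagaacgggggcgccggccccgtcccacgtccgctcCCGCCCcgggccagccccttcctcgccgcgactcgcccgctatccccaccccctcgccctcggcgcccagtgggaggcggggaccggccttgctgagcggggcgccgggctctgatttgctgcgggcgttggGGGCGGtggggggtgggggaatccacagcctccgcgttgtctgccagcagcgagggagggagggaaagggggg
Col11a1: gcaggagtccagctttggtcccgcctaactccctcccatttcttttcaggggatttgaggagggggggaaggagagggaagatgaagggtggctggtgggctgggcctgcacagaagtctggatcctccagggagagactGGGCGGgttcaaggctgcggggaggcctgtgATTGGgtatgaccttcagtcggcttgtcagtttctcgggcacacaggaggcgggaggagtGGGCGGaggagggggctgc
Col24a1: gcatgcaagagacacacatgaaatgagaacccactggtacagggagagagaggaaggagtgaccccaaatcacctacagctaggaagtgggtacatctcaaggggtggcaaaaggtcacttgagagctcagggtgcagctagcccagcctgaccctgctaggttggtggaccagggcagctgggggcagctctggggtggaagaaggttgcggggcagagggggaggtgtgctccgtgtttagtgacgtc

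The window of Col3a1 was AT-rich (35.2% GC) and held a TATA box core. That of Col5a1 was 76.4% GC and held GC boxes, that of Col11a1 was 62.4% GC with a CCAAT box and GC boxes, and that of Col24a1 was 58.0% GC with none of these letters. Over the 38 collagen windows, 13.2% held the TATA box core, 34.2% the CCAAT box and 57.9% the GC box, against 12.4%, 33.8% and 32.7% of all 32851 windows of the same length. A match is a description of letters and not of a bound site.

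Levels were compared between genes per kilobase of gene length, as CPM divided by the gene's length in kilobases (RPKM). In PFC the most abundant chain was Col6a1, the alpha 1 chain of type VI, at 14.4 ± 3.31 RPKM (mean ± SD, n = 31). It was followed by the paired basement membrane chains Col4a2 (9.23 ± 2.83 RPKM) and Col4a1 (7.33 ± 1.61 RPKM) and by Col25a1 (5.34 ± 1.27 RPKM), a transmembrane chain of neurons whose shed ectodomain is known from amyloid plaques. The type I chains Col1a2 (4.29 ± 2.14 RPKM) and Col1a1 (3.30 ± 1.79 RPKM), the fibrillar chain Col11a2 (3.59 RPKM) and the FACIT chain Col19a1 (3.52 ± 1.04 RPKM) came next, with means closer than their SDs. In hypothalamus the order changed: Col25a1 led at 11.2 ± 2.10 RPKM, ahead of Col4a2 (7.26 ± 2.02 RPKM), the transmembrane chain Col23a1 (6.25 ± 2.47 RPKM) and Col4a1 (5.00 ± 1.22 RPKM), of which the last 3 overlapped within their SDs.

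Most collagen genes were low. The median of the 43 tested chains was 0.957 RPKM in PFC and 0.806 RPKM in hypothalamus, against 3.26 RPKM for all genes tested in either region, and 20 chains reached 1 RPKM in each. Col10a1, the cartilage chain, was the 1 member that failed the filter on low counts, at 0 to 11 counts per library. The highest and lowest chain were 326-fold apart in PFC and 240-fold in hypothalamus.

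**Figure D1:**
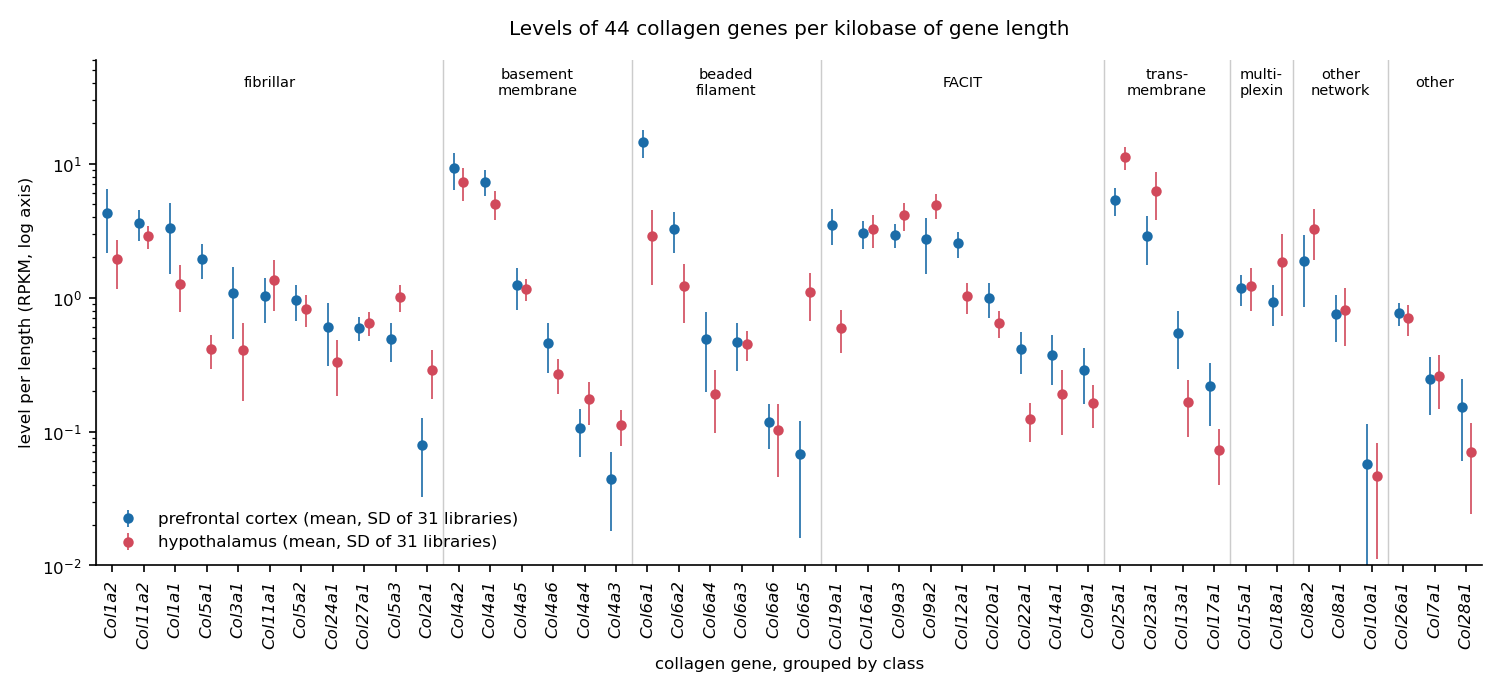
Level of the 44 collagen genes per kilobase of gene length (RPKM, log axis) in prefrontal cortex and hypothalamus, as mean and SD of 31 libraries each, grouped by class. Col6a1 stood highest in PFC at 14.4 RPKM and Col25a1 in hypothalamus at 11.2 RPKM.

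The first comparison asked which chains differed between PFC and hypothalamus. Each gene was tested with edgeR's quasi-likelihood fit, p-values were adjusted by Benjamini-Hochberg over 18971 genes, and an adjusted p under 0.05 was called. By that rule 33 of 43 chains (76.7%) differed, 21 higher and 12 lower in PFC. Among all genes 76.2% differed (39.6% higher and 36.5% lower), so the share of collagen genes was that of the background. The classes were mixed: 6 of the 11 fibrillar chains were higher and 3 lower, 3 of the 6 type IV chains were higher and 2 lower, 3 of the 6 type VI chains were higher and 1 lower, 6 of the 9 FACIT chains were higher and 2 lower, and 2 of the 4 transmembrane chains were higher and 2 lower.

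Col19a1, a FACIT chain of cortical interneurons and other neurons, had the largest excess in PFC. Its 31 PFC libraries ran from 14.4 to 39.2 CPM (median 22.4) and its 31 hypothalamic libraries from 0.295 to 6.87 CPM (median 4.06). The regions did not overlap, and the log2 fold change was 2.57 ± 0.11 (SE; edgeR adjusted p = 7.29e-29). Col6a1 ran from 39.3 to 100.4 CPM (median 66.0) in PFC and from 5.45 to 30.0 CPM (median 9.96) in hypothalamus, again without overlap (2.39 ± 0.13, adjusted p = 3.69e-24). Col5a1, the fibrillar chain that nucleates type I fibrils, lay at 9.42 to 27.7 CPM (median 16.4) in PFC and 1.89 to 5.70 CPM (median 3.37) in hypothalamus, without overlap (2.24 ± 0.09, adjusted p = 2.37e-30). Col22a1 (1.70 ± 0.11), the transmembrane chain Col13a1 (1.64 ± 0.15) and the hemidesmosome chain Col17a1 (1.55 ± 0.19) were next in log2 fold change, and the type I and III chains were also higher in PFC, by 1.30 (Col1a1), 1.07 (Col1a2) and 1.35 (Col3a1) on the log2 scale. Col22a1, Col13a1 and Col17a1 were near the floor in hypothalamus, at 4 to 46, 4 to 24 and 1 to 21 counts per library.

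Other chains favoured the hypothalamus. Col6a5 was nearly absent from PFC, at 0 to 2.03 CPM (median 0.547), and ran from 5.91 to 20.5 CPM (median 9.26) in hypothalamus. The regions did not overlap, with a log2 fold change of -3.99 ± 0.20 (edgeR adjusted p = 5.35e-26). Col2a1, the main fibrillar chain of cartilage, lay at 0.0597 to 1.83 CPM (median 0.675) in PFC and 1.12 to 6.37 CPM (median 2.38) in hypothalamus, with some overlap (-1.97 ± 0.15). The neuronal transmembrane chains behaved likewise: Col25a1 ran from 44.9 to 102.0 CPM (median 68.6) in PFC and from 31.9 to 186 CPM (median 150.3) in hypothalamus (-1.07 ± 0.08), where the lowest value came from the psilocybin mouse number 5 at 4 weeks. Col23a1 was lower in PFC by -1.13 ± 0.12, Col4a3 by -1.30 ± 0.20 and the fibrillar chain Col5a3 by -1.05 ± 0.10 on the log2 scale. Col4a3 was the lowest chain of PFC per length, at 0.0442 RPKM and 0 to 47 counts per library, against 0.111 RPKM in hypothalamus. The hypothalamic libraries thus weighed most in its passing the filter on low counts.

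Markers of other cell types moved with region. All 9 markers of meningeal fibroblasts were higher in PFC (median log2 fold change 1.77; summed level 73.5 to 312 CPM against 21.5 to 134 CPM, with overlap), as were all 8 endothelial (median 0.522) and all 8 mural markers (median 0.701). All 5 microglial markers were also higher in PFC (median 0.879), and their summed levels did not overlap (339 to 607 CPM against 212 to 323 CPM). All 6 oligodendrocyte markers were lower in PFC (median -1.10) and 5 of 7 choroid plexus markers were lower, with 1 higher. Their part in the regional differences was not tested. Among the partner proteins of the matrix, such as laminins, nidogens and small proteoglycans, 17 of 22 were higher and 1 (Lamb3) lower in PFC. Of the genes for chain synthesis and crosslinking 24 of 30 differed (10 higher, 14 lower), of the breakdown genes 13 of 14 (7 higher, 6 lower) and of the collagen receptors 10 of 10 (6 higher, 4 lower), beside 76.2% of all genes (39.6% higher and 36.5% lower).

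**Figure D2:**
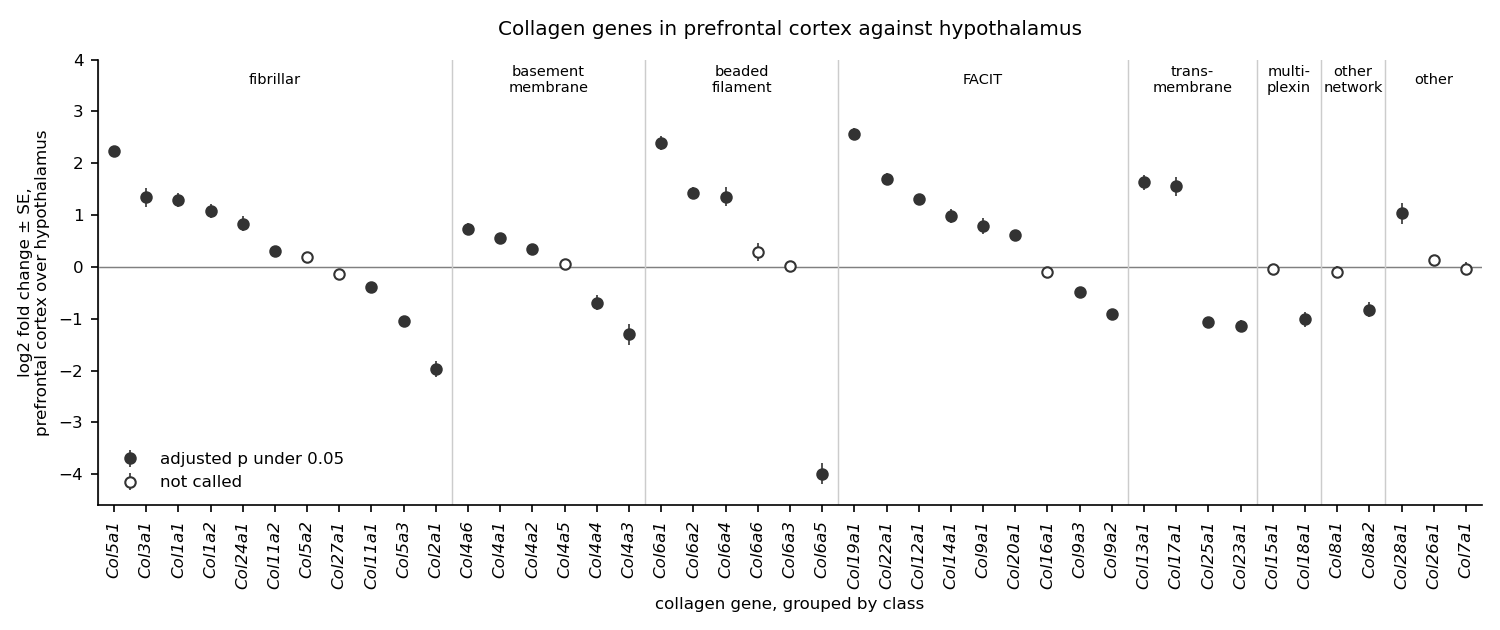
Log2 fold change ± SE of 43 collagen genes in prefrontal cortex over hypothalamus, by class; filled points passed an adjusted p of 0.05 and open points did not. The range runs from 2.57 for Col19a1 to -3.99 for Col6a5.

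The central question of the study was the response to psilocybin. No collagen gene was called in any of the 4 comparisons of psilocybin with saline (edgeR's quasi-likelihood test, Benjamini-Hochberg adjustment over 18971 genes). With limma's voom with quality weights, the kind of model the study's own methods describe, 2 chains were called in PFC at 3 h, where 6.49% of all genes were, and 0 chains in the other 3 comparisons. The study itself reported substantial changes in PFC at 3 h, with more genes down than up, which the edgeR fit did not reproduce. The background in edgeR was as sparse as the chains: 2 genes (0.0105%) were called in PFC at 3 h, and 0 in PFC at 4 weeks and in hypothalamus at either time, where 1371, 456, 337 and 1823 genes had an unadjusted p under 0.05 in PFC at 3 h, PFC at 4 weeks, hypothalamus at 3 h and hypothalamus at 4 weeks. Among the 43 chains, 1, 0, 1 and 0 had such a p in the same order. The median log2 fold change of the chains was 0.00857 in PFC at 3 h (26 above 0 and 17 below), -0.0885 in PFC at 4 weeks (12 and 31), -0.0532 in hypothalamus at 3 h (16 and 27) and 0.032 in hypothalamus at 4 weeks (28 and 15). The medians of all genes tested were -0.00736, -0.00669, -0.000806 and 0.00974. The SE of a single chain's log2 fold change was 0.135 to 0.495, with medians of 0.227 to 0.238. Col5a1 missed the threshold in edgeR with a difference well above its error, while voom called it on the same libraries. Changes of that order or smaller may thus have been missed in the edgeR fit, but 1 chain sets no general limit of detection.

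The chain nearest to a call was Col5a1 in PFC at 3 h. The 8 psilocybin mice ran from 10.2 to 20.1 CPM (median 11.1) and the 8 saline mice from 9.42 to 23.0 CPM (median 18.2). All psilocybin mice but number 7, which gave the highest value, lay below the median of the saline mice, and the groups overlapped. The log2 fold change was -0.51 ± 0.17 (unadjusted p = 0.0046, edgeR adjusted p = 0.509), and it was -0.52 within pool C and -0.50 within pool D. Without mouse 7 it was -0.66 (edgeR adjusted p = 0.152). At 4 weeks the psilocybin mice ran from 12.9 to 27.7 CPM (median 17.1) and the saline mice from 14.9 to 23.3 CPM (median 17.2), and the log2 fold change was -0.02. The difference between the responses at 3 h and at 4 weeks in PFC was -0.49 (unadjusted p = 0.051) and was not called. The voom model, which weights each library by its own spread and called 1232 genes in PFC at 3 h, called 2 chains lower: Col5a1 (-0.74, adjusted p = 0.0078) and the FACIT chain Col12a1 (-0.50, adjusted p = 0.030), and over all 12 other settings the adjusted p of each reached 0.981. Col12a1 lay at 22.3 to 43.3 CPM (median 31.0) with psilocybin and 27.8 to 50.7 CPM (median 39.6) with saline, which overlapped (-0.32 ± 0.18 and adjusted p = 0.737 in edgeR).

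The remaining chains with the smallest p-values reached no adjusted p under 0.5. In PFC at 3 h this was Col4a3 (0.65 ± 0.43). In PFC at 4 weeks these were Col18a1 (-0.44 ± 0.29), Col6a4 (-0.52 ± 0.35) and Col6a5 (0.61 ± 0.44), each with an edgeR adjusted p of 1. In hypothalamus at 3 h they were Col6a1 (-0.54 ± 0.27), Col6a2 (-0.38 ± 0.24) and Col1a1 (-0.41 ± 0.27), and in hypothalamus at 4 weeks Col14a1 (0.54 ± 0.28), Col7a1 (0.43 ± 0.24) and the endostatin precursor Col18a1 (0.47 ± 0.27). Most of these values moved when 1 library was left out. Without psilocybin mouse 3 Col18a1 gave 0.076 in hypothalamus at 4 weeks, and Col14a1 gave 0.28 without psilocybin mouse 8. Without saline mouse 6, which had the highest Col6a1 of its group, Col6a1 gave -0.29 and Col6a2 -0.19 in hypothalamus at 3 h. In PFC at 4 weeks Col18a1 gave -0.25 without saline mouse 8, Col6a4 -0.17 without saline mouse 6, and Col6a5 0.40 without psilocybin mouse 7 and 1.16 without saline mouse 3, and at 3 h Col4a3 gave 1.19 without saline mouse 1. None of the differences in response between regions or between times was called for any chain. The fits within each extraction pool also called 0 chains in all 4 comparisons, and at most 0.00527% of all genes.

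The classes gave the same picture for the chains that carry them. The type I chains differed by 0.01 (Col1a1) and 0.01 (Col1a2) in log2 fold change in PFC at 3 h, by -0.29 and -0.19 in PFC at 4 weeks, by -0.41 and -0.28 in hypothalamus at 3 h and by 0.14 and 0.06 in hypothalamus at 4 weeks, none of them called. Col3a1 gave -0.08, -0.37, -0.34 and 0.20 in the same order. The basement membrane pair Col4a1 and Col4a2 stayed between -0.15 and 0.04 in all 4 comparisons. Of the chains known from neurons, Col25a1 ranged from -0.22 ± 0.15 in hypothalamus at 4 weeks to 0.12 in hypothalamus at 3 h. The first of these was -0.064 without psilocybin mouse 5, the lowest of its group. Col11a1, Col19a1, Col23a1, Col24a1 and Col27a1 stayed between -0.15 and 0.18. Genes for collagen synthesis, breakdown, receptors and matrix partners were likewise not called in any of the 4 comparisons.

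**Figure D3:**
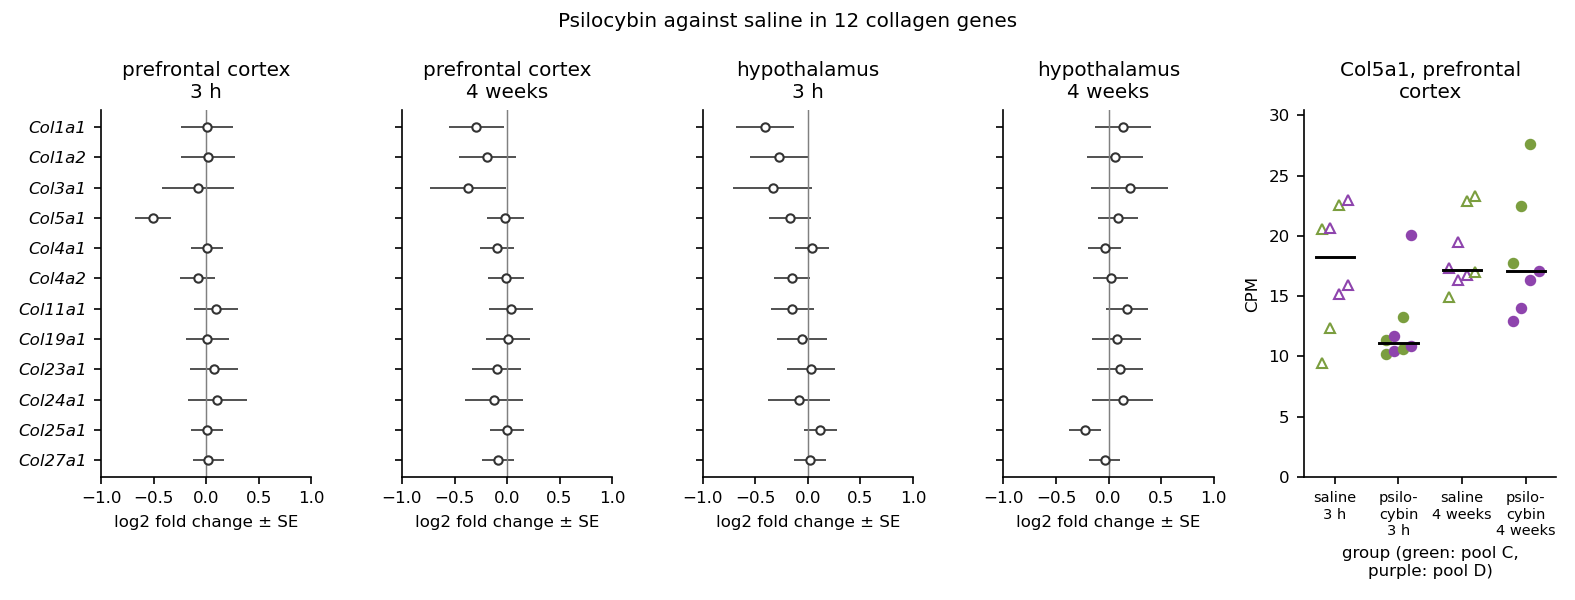
Log2 fold change ± SE of 12 collagen genes, psilocybin over saline, in each region and harvest, with the CPM of Col5a1 in each PFC library at the right (circles psilocybin, triangles saline, colours the extraction pools, lines the group medians). All points on the left failed the adjusted p of 0.05, and Col5a1 at 3 h has medians of 11.1 and 18.2 CPM.

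The samples taken at 4 weeks were then compared with those taken at 3 h. In PFC, 11 of 43 chains (25.6%) differed between 4 weeks and 3 h with both treatments averaged, 9 higher and 2 lower at 4 weeks, against 17.1% of all genes (9.22% higher and 7.92% lower). The median log2 fold change of the chains was 0.212, against 0.000602 for all genes. Fibrillar chains gave 6 of the 11 calls in both directions, the type IV and type VI chains gave 0 of 6 each, and the chains outside the classes, Col7a1, Col26a1 and Col28a1, were all higher. Without the hypothalamic library of psilocybin mouse 5 at 4 weeks, which had the lowest quality weight in voom, 14 chains and 25.5% of all genes were called. Calls that depend on a setting are named below.

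Among the fibrillar chains, Col2a1 had the largest log2 fold change. It ran from 0.0597 to 1.09 CPM (median 0.449) in the 16 libraries of 3 h and from 0.408 to 1.83 CPM (median 1.08) in the 15 of 4 weeks, with a log2 fold change of 1.30 ± 0.22 (edgeR adjusted p = 1.96e-05). The harvests overlapped, and its level was low throughout PFC. Col11a1, which is expressed by neurons as well as cartilage, rose from 5.91 to 13.0 CPM (median 9.35) to 8.79 to 24.6 CPM (median 17.0), by 0.77 ± 0.15 (adjusted p = 0.000106). Col24a1, a fibrillar chain found in cortical neurons and, like Col11a1, one of the windows printed above, was at 1.02 to 6.93 CPM (median 2.96) at 3 h and 2.77 to 10.2 CPM (median 6.33) at 4 weeks, by 0.93 ± 0.20 (adjusted p = 0.000489). The medians of Col11a1 and Col24a1 thus lay clearly apart while the ranges overlapped. Col5a3 also rose, by 0.39 ± 0.14, at an adjusted p of 0.0469.

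The type I chains went the other way. Col1a1 was at 7.44 to 57.5 CPM (median 21.3) at 3 h and 8.77 to 33.2 CPM (median 16.1) at 4 weeks, a log2 fold change of -0.53 ± 0.18 (edgeR adjusted p = 0.0326). Col1a2 was at 20.7 to 133.8 CPM (median 59.3) and 26.5 to 76.3 CPM (median 37.7), or -0.53 ± 0.19 (adjusted p = 0.0418). The groups overlapped over most of their range, and the highest libraries were those of 3 h. Col3a1, which forms fibrils together with type I, gave -0.40 ± 0.25 and was not called (adjusted p = 0.274). The 9 meningeal fibroblast markers had a median log2 fold change of -0.321 in the same comparison, all 9 below 0 and 0 called, and their summed level was 73.5 to 312 CPM (median 199) at 3 h and 78.2 to 277 CPM (median 119) at 4 weeks. Their part in the type I difference was not tested.

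Outside the fibrillar class, the rare chain Col28a1 rose by 1.14 ± 0.26 (0.156 to 1.24 CPM, median 0.405, to 0.470 to 1.76 CPM, median 1.08), and Col22a1, a FACIT chain of tissue junctions, by 0.72 ± 0.15. Col28a1 had only 2 to 68 counts per PFC library. Its level was highest in the PFC groups of 4 weeks, which weighed most in its passing the filter on low counts. Its call is therefore not independent of that filter. Col7a1, the anchoring fibril chain, rose by 0.69 ± 0.18, the multiplexin Col15a1 by 0.36 ± 0.12 and Col26a1 by 0.33 ± 0.10, at edgeR adjusted p-values of 0.0043, 0.0331 and 0.0216. Col4a1 (-0.03) and Col4a2 (0.21) were not called, nor were the neuronal chains Col25a1 (0.28) and Col19a1 (0.37).

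The harvest difference was seen within each treatment for part of these chains. In saline mice 3 chains were called, Col2a1 (1.57), Col11a1 (0.80) and Col24a1 (1.05), against 4.72% of all genes. In psilocybin mice 5 were called, Col28a1 (1.30), Col2a1 (1.02), Col22a1 (0.80), Col11a1 (0.75) and Col5a1 (0.57), against 5.96%. Within extraction pool C 12 chains were called, all higher at 4 weeks (background 10.6%, and 5.85% higher), and within pool D 1, Col24a1 (background 4.93%). Col11a1 was 0.99 and 0.58, Col2a1 1.74 and 0.93, and Col24a1 0.91 and 0.98 in pools C and D. The difference between the pools was called for 0 chains and 0.0685% of all genes. Col1a1 was -0.54 and -0.51 and Col1a2 -0.52 and -0.50 in the same pools, called in neither.

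Pools C and D themselves differed in the fibroblast chains. In every group, cages 1 to 4 went to pools A or C and cages 5 to 8 to pools B or D. Within a region, the extraction pool therefore cannot be told apart from the set of cages and mice it held. Pool D was higher than pool C by 0.90 ± 0.18 for Col1a1, 0.80 ± 0.19 for Col1a2 and 0.86 ± 0.25 for Col3a1 on the log2 scale, 18 of 43 chains were called (14 higher in pool D), and 24.9% of all genes were (13.4% higher and 11.4% lower). All 9 meningeal markers were higher in pool D (median 0.848; summed level 74.2 to 312 CPM against 73.5 to 246 CPM in pool C). So were all 7 striatal markers (median 1.11), all 4 of blood (1.1), all 6 of oligodendrocytes (0.509), all 5 of astrocytes (0.391) and all 5 of microglia (0.344), while 4 of 7 markers of cortical excitatory neurons were lower and 0 of 8 endothelial markers were called. The summed choroid plexus markers had medians of 21.1 CPM in pool D and 9.58 CPM in pool C, and the mural markers 240 and 232 CPM. The part of these cell types in the difference between pools was not tested. In hypothalamus, 14 chains differed between pools B and A, 2 of them higher in pool B, against 17.4% of all genes (9.79% higher and 7.57% lower). There the median summed mural (117 against 157 CPM) and endothelial markers (131 against 145 CPM) were lower in pool B than in pool A. Those of all other lists were higher, such as meningeal (41.0 against 28.2 CPM), astrocyte (2090 against 1520 CPM) and blood markers (241 against 130 CPM), with overlap. Their part was not tested.

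The stability of these calls differed. Col11a1, Col24a1 and Col7a1 were called in 12 of 12 other settings, and Col2a1, Col28a1 and Col22a1 in 11 of 11, and all 6 in each of 31 fits that left out 1 PFC library. Col2a1, Col28a1 and Col22a1 were too low to be tested where at least 10 counts were asked of every library. Col26a1 was called in 10 of 12 settings and 31 of 31 such fits, Col15a1 in 10 and 24, and Col5a3 in 7 and 13. Col1a1 was called in 5 of 12 settings and 25 of 31 fits, and Col1a2 in 6 and 16. Leaving the extraction pool or the low-count filter out of the fit, adding the cage number as a block, correcting for GC content and gene length, or using voom gave 0 chains lower at 4 weeks.

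Some collagen-processing enzymes and chaperones differed between harvests in PFC, in both directions. Of the 30 tested genes for synthesis and crosslinking 11 were called, 4 higher (against 9.22% of all genes) and 7 lower (against 7.92%), with the smallest p for P4ha1. P4ha1, the alpha subunit of the prolyl hydroxylase that stabilises the collagen helix, lay at 54.8 to 86.3 CPM (median 69.9) in the PFC libraries of 3 h and 39.2 to 48.5 CPM (median 46.2) in those of 4 weeks. The harvests did not overlap, and the log2 fold change was -0.65 ± 0.06 (edgeR adjusted p = 7.86e-12). It was -0.71 within pool C and -0.59 within pool D, called in both. In hypothalamus P4ha1 went from 45.4 to 73.9 CPM (median 58.9) to 37.3 to 52.3 CPM (median 41.9), a log2 fold change of -0.46 ± 0.06 (adjusted p = 3.04e-07), called in pool A (-0.49) and pool B (-0.44). It was called in 12 of 12 other settings in each region.

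The sister subunit P4ha2 was lower at 4 weeks in both regions (-0.30 in PFC and -0.32 in hypothalamus), as was the shared beta subunit P4hb in PFC (-0.17). Serpinh1, which encodes Hsp47, fell by -0.58 ± 0.13 in PFC (edgeR adjusted p = 0.00073), from 15.7 to 46.9 CPM (median 27.4) to 13.6 to 31.4 CPM (median 18.7), with overlap. The propeptide-processing genes Pcolce (-0.59) and Adamts2 (-0.38) and the lysyl hydroxylase Plod1 (-0.25) were also lower, while Bmp1 (0.27), P3h3 (0.29), Plod2 (0.36) and Ppib (0.15) were higher, all as log2 fold changes in PFC. The counts of the other lists stand beside 17.1% of all genes called in either direction. Of 14 breakdown genes 2 were lower (Mmp24 and Timp4), of 10 receptors 1 was lower (Itga10), and of the partners reported Agrn was higher and Lama1 lower (-0.50). Serpinh1 gave -0.09 in hypothalamus (adjusted p = 0.754), where no breakdown, receptor or partner gene was called.

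**Figure D4:**
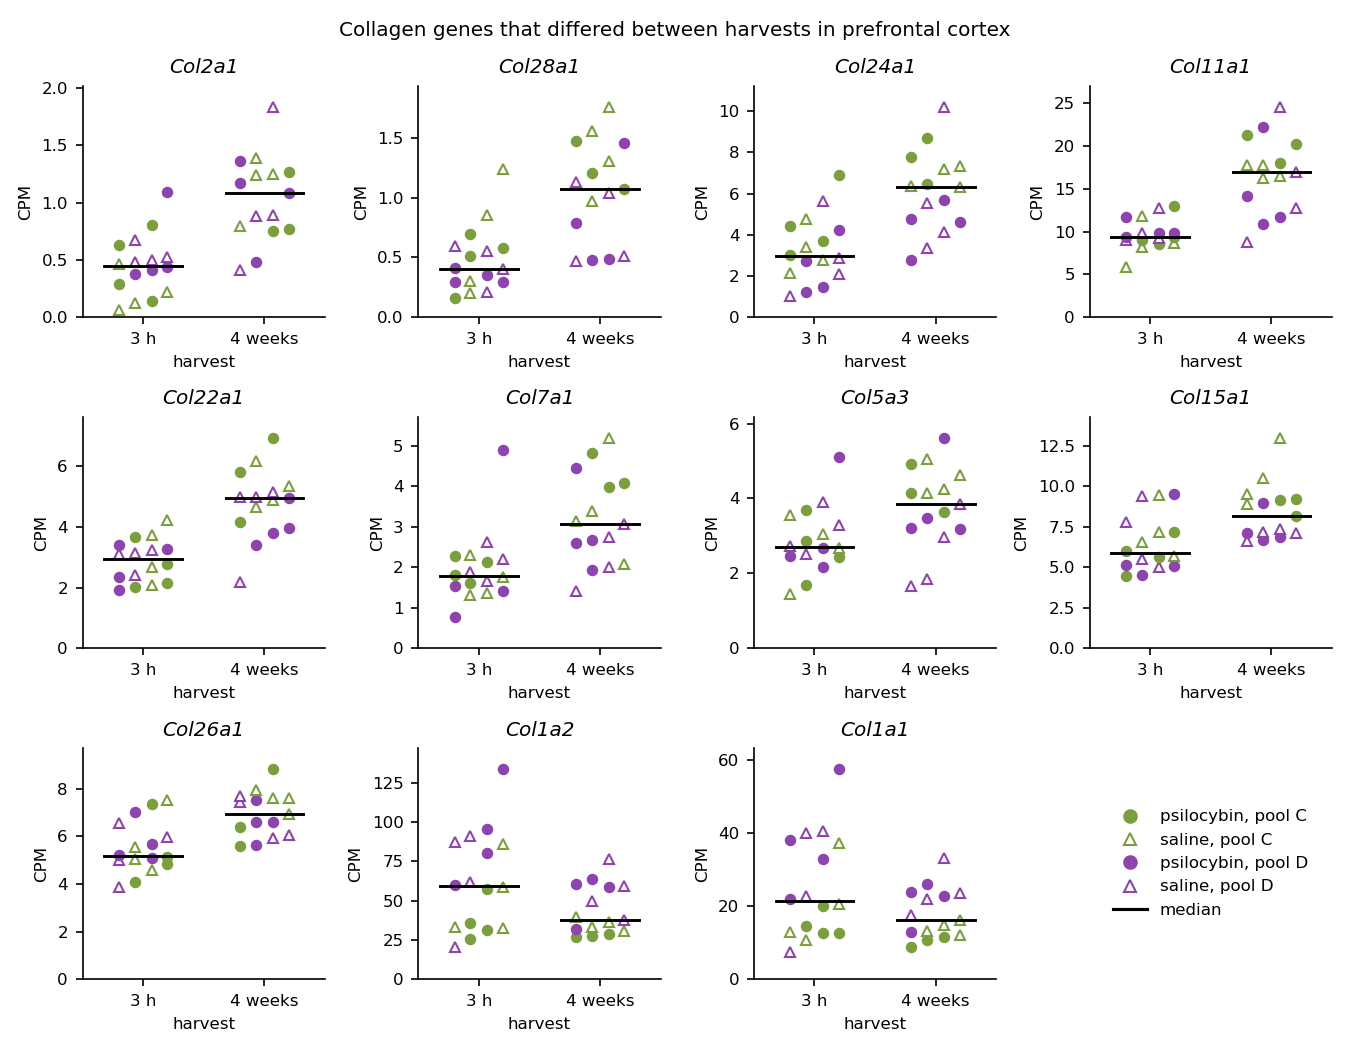
CPM of the 11 collagen genes that differed between harvests in prefrontal cortex, 1 point per library (circles psilocybin, triangles saline, colours the extraction pools, lines the medians), axes starting at 0. The medians of 9 genes are higher at 4 weeks and those of Col1a1 and Col1a2 at 3 h, and in all 11 the harvests overlap.

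The hypothalamus gave 1 call, Col6a1, against 3.99% of all genes. Col6a1 was at 5.63 to 24.9 CPM (median 8.48) at 3 h and 5.45 to 30.0 CPM (median 12.9) at 4 weeks, a log2 fold change of 0.62 ± 0.18 (edgeR adjusted p = 0.0389), with broad overlap. Its partner Col6a2 was at 4.62 to 17.0 CPM (median 7.20) and 6.57 to 28.2 CPM (median 10.2), or 0.53 ± 0.17, and was not called (adjusted p = 0.0563). In all, 38 of 43 chains were fitted above 0, with a median log2 fold change of 0.178 against 0.0217 for all genes. Of the meningeal markers all 9 were fitted above 0 as well (median 0.696, 0 called), and the choroid plexus markers all 7 (median 0.869, 0 called), whose part was not tested.

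The Col6a1 call was not steady. It was present in psilocybin mice (1.04, adjusted p = 0.025, background 1.16%) and not in saline mice (0.20, where 0 chains and 0.685% of all genes were called), and the difference between these was 0.84 on the log2 scale and not called (unadjusted p = 0.025). Within pool A Col6a2 (0.99) and not Col6a1 (0.66) was called, and within pool B 0 chains (background 0.601% and 1.39%). Col6a1 was called in 8 of 12 other settings and in 16 of the 31 fits that left out 1 hypothalamic library.

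The harvest differences of PFC and hypothalamus were compared directly. The smallest p-values belonged to Col2a1 (a difference of 0.95, edgeR adjusted p = 0.086), Col11a1 (0.62, adjusted p = 0.12) and Col24a1 (0.84, adjusted p = 0.12), and 0 of 43 chains were called, against 1.06% of all genes. A harvest difference particular to PFC was therefore not shown for any single chain.

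The last question was whether chains that assemble into the same trimer varied together from mouse to mouse. Pearson's r was computed over 31 mice per region on log2 CPM, after the mean of each group and pool was removed, with permutation p-values adjusted by Benjamini-Hochberg over 38 relations. The chains of a pair share their library and depth, so an r describes these libraries. Col1a1 and Col1a2, the chains of type I, reached r = 0.97 in PFC (Spearman's rho 0.948; permutation adjusted p = 2.37e-05, from the smallest p of 1e-05 that the permutations can give) and 0.918 in hypothalamus (rho 0.88). Without the 2 mice farthest from the median r was 0.941 and 0.859. Col4a1 and Col4a2, whose genes lie head to head on chromosome 8 at chr8:11198423-11312826 on the minus strand and chr8:11312805-11449287 on the plus strand and overlap by their first bases, gave 0.916 and 0.861 (rho 0.841 and 0.89).

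Other pairs were weaker. Col6a1 and Col6a2 gave 0.478 in PFC and 0.677 in hypothalamus (permutation adjusted p = 0.00933 and 4.47e-05). Col4a5 and Col4a6 gave 0.75 and 0.565, which dropped to 0.497 and 0.245 without 2 mice (rho 0.6 and 0.359, the latter with a permutation adjusted p of 0.0671), so the relation in hypothalamus rested on those mice. Col5a1 and Col5a2 gave 0.0162 in PFC (permutation adjusted p = 0.932) and 0.504 in hypothalamus (0.00667; rho 0.356, permutation adjusted p = 0.0675), and Col11a1 and Col11a2 -0.245 and 0.444 (0.198 and 0.0183). Col8a1 and Col8a2 gave 0.553 and 0.362, the latter 0.184 without 2 mice (rho 0.11), Col9a1 and Col9a2 0.343 and 0.292, and Col4a3 and Col4a4 -0.14 and 0.446, of which the last was 0.012 without 2 mice (rho 0.0984). Col4a3 and Col4a4 also lie head to head, as do Col4a5 and Col4a6, and the part of this arrangement in the correlations was not tested. The median of the 9 partner pairs was 0.478 in PFC and 0.504 in hypothalamus, against 0.13 and 0.186 for 894 other pairs of chains. The 894 left out only the 9 listed pairs, so other chains of the same type, such as Col6a1 and Col6a3, were among them. A high r was not particular to partners. Col1a1 with Col6a3 gave 0.917 and Col1a2 with Col4a5 0.914 in PFC, and Col1a2 with Col6a2 gave 0.911 in hypothalamus.

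The type I and III chains varied with markers of the fibroblasts that make them. Slc6a13, a transporter of meningeal fibroblasts, gave r = 0.93 in PFC and 0.83 in hypothalamus with Col1a2, 0.928 and 0.873 with Col3a1 and 0.886 and 0.708 with Col1a1 (permutation adjusted p = 2.37e-05 for each). Dcn, the small proteoglycan decorin, gave 0.726 and 0.665 with Col1a2, 0.763 and 0.821 with Col3a1, and 0.684 and 0.553 with Col1a1, the last 0.393 without 2 mice. Within PFC, Col1a1 and Col3a1 gave 0.963. Col4a1 gave 0.276 in PFC (permutation adjusted p = 0.146) and 0.80 in hypothalamus (2.37e-05) with Flt1, a vascular growth factor receptor of endothelium, and 0.322 (0.0961) and 0.565 (0.00225) with Pdgfrb, a growth factor receptor of mural cells.

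**Figure D5:**
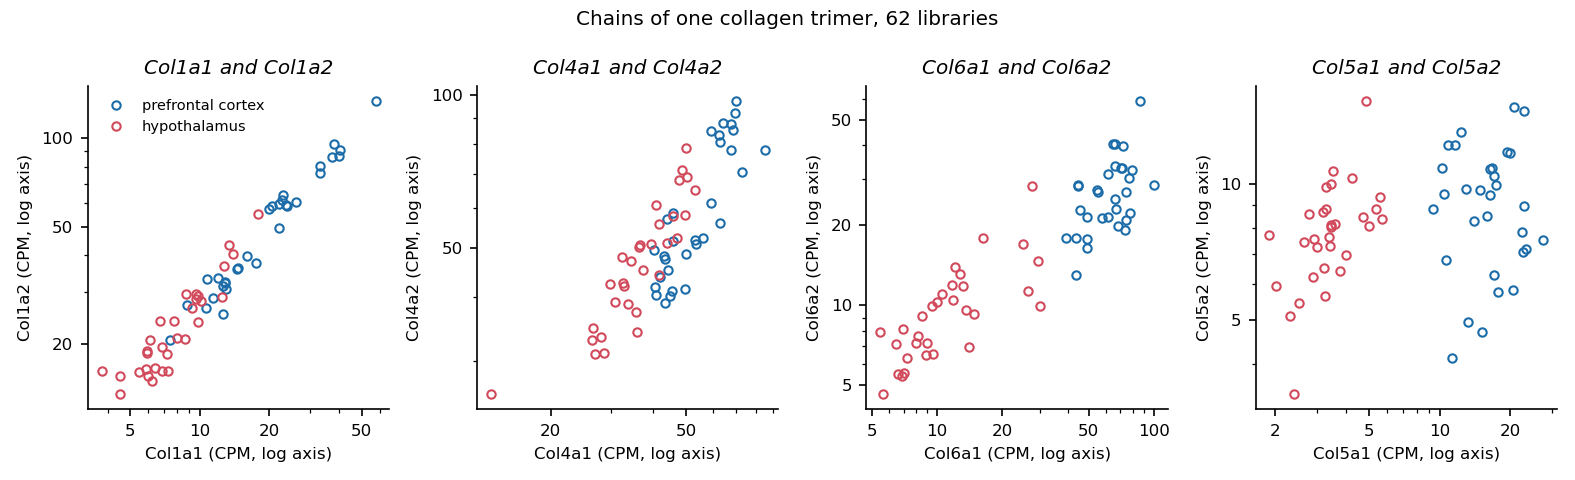
CPM (log axes) of 4 pairs of chains that assemble into 1 trimer, 1 point per library, in prefrontal cortex and hypothalamus. Col1a1 with Col1a2 and Col4a1 with Col4a2 form narrow bands in both regions, while Col5a1 with Col5a2 forms no band in PFC, where r was 0.0162 after group and pool were removed.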

How the data were processed

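Bulk RNA-seq was deposited as 1 table of counts per gene and library. The authors made these counts from stranded poly-A libraries of 8 groups with bcl2fastq 2.20.0, STAR 2.7.2b and featureCounts 1.6.2, per the labels and the study's methods. Reads had been aligned to GRCm38 with a GENCODE gene model, and coordinates are those of the deposited table. Symbols and gene types came from an earlier GENCODE release (55141 of 55401 genes matched). Libraries under 1000000 counts were left out, and 62 of 64 were used. Genes were filtered with filterByExpr (minimum count 10), scaled by TMM and tested with edgeR 4.0.16 (glmQLFit, robust, and glmQLFTest), with a mean per group and the extraction pool within region as covariate. P-values were adjusted by Benjamini-Hochberg over 18971 genes at 0.05. CPM and RPKM were computed from the counts. The p-values describe the spread between mice. Members and lists were chosen with earlier results of these data known. Named genes were 12 chains fixed by class, the chains called, the 3 smallest p-values of each comparison and the 6 largest regional differences each way.

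The replicate number is the cage number. Libraries of the same cage and region shared little (mean correlation of deviations 0.0806 in PFC and 0.0723 in hypothalamus, lowest -0.312 and -0.213 over 45 pairs), so the numbers were not taken to pair libraries, and a cage block was an alternative. The other settings were DESeq2 1.42.0, limma 3.58.1 voom with quality weights and the mouse as a block (consensus correlation 0.0282), after the study's methods, other filters, scalings and library sets, and each library left out in turn. 1 partner gene is not reported here. The scripts were tested on simulated data. Correlations used 100000 permutations.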

Additional observations from a re-analysis of the deposited data

Results flagged for a closer look

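In 23 of 240 combinations of 30 named chains and 8 groups, the highest or lowest library stood apart from the rest of its group by Dixon's test. Chance flags about 1 group in 20 if values are normally distributed. The test was run on CPM without a log, for which that rate need not hold. The library was the highest in 20 cases and the lowest in 3, and 12 libraries were involved. All values are CPM.

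The PFC library of psilocybin mouse 7 at 3 h was the highest for Col5a1 (20.1, the others at 10.2 to 13.3), Col27a1 (13.6), Col18a1 (11.7), Col7a1 (4.91) and Col9a2 (24.1). Its quality weight in voom was 0.12, and without it the psilocybin difference of Col5a1 was -0.66 on the log2 scale (edgeR adjusted p = 0.152). The hypothalamic library of psilocybin mouse 1 at 4 weeks was the highest for Col1a2 (55.3), Col23a1 (76.1), Col6a5 (20.5), Col6a2 (28.2) and Col22a1 (2.2), and had the highest summed meningeal markers of the region, 134 CPM.

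The hypothalamic library of saline mouse 6 at 3 h was the highest for Col3a1 (8.93), Col6a1 (24.9) and Col14a1 (1.67), and that of saline mouse 6 at 4 weeks for Col6a1 (29.3) and Col6a4 (3.63). Col18a1 stood apart upward in the hypothalamus of psilocybin mouse 5 at 3 h (35.5) and psilocybin mouse 3 at 4 weeks (44.5) and in the PFC of saline mouse 8 at 4 weeks (14.9). The others were Col6a5 in the hypothalamus of saline mouse 8 at 4 weeks (17.9) and Col4a3 in the PFC of saline mouse 1 at 3 h (0.925). The lowest were Col25a1 in the hypothalamus of psilocybin mouse 5 at 4 weeks (31.9, the others at 130.0 to 181; this library had the lowest quality weight in voom, 0.0276, and the highest summed hypothalamic and blood markers of the region, 2810 and 736 CPM), Col6a1 in the PFC of psilocybin mouse 5 at 4 weeks (54.8) and Col22a1 in the PFC of saline mouse 5 at 4 weeks (2.19).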

How the results depend on the processing

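The 0 calls for psilocybin held in each setting tried except voom, which called 2 chains in PFC at 3 h, and were 0 in each fit that left out 1 library. For harvest in PFC the count of 11 became 7 without the extraction pool (13.4% of all genes called), 6 without a filter on low counts (5.85%), 16 with voom (25.8%) or with a correction for GC and length (24.9%), 8 with the cage number as a replicate block (16.3%), 14 without psilocybin mouse 5 of hypothalamus at 4 weeks (25.5%) and 1 within pool D (12 within pool C), and 7 to 13 when 1 library was left out, with 7 without saline mouse 4 of 3 h. For harvest in hypothalamus the count of 1 became 0 with all 64 libraries, without the extraction pool, without a filter, with only the groups of the contrast and within pool B, 2 with DESeq2, with at least 10 counts in every library or without psilocybin mouse 5 of 4 weeks, 3 with the GC and length correction (6.03% of all genes), with or without the replicate block, 5 with voom (14.7%), and 0 to 2 when 1 library was left out. Between regions 33 became 21 where at least 10 counts in every library left 30 chains to test, and was 33 with the mouse as a replicate block and 33 to 35 when 1 library was left out. The cage block changed no other count by over 1.5 times. The psilocybin log2 fold changes near 0 also changed sign, and none of these values was called. In PFC at 3 h the opposite sign appeared with DESeq2 (Col1a1 -0.0018 and Col25a1 -0.00072), without the extraction pool (Col3a1 0.064), without a filter (Col1a1 -0.0038 and Col4a1 -0.0058), with the cage block (Col27a1 -0.011), with the cage block and the GC and length correction (Col3a1 0.0026) and with voom (Col3a1 0.0094, Col4a1 -0.11, Col23a1 -0.0011 and Col27a1 -0.12). With 1 library left out there, the value ran from -0.16 to 0.25 for Col1a1, from -0.14 to 0.21 for Col1a2, from -0.26 to 0.23 for Col3a1, from -0.14 to 0.097 for Col4a1, from -0.23 to 0.013 for Col4a2, from -0.077 to 0.13 for Col19a1, from -0.053 to 0.15 for Col23a1, from -0.046 to 0.34 for Col24a1, from -0.058 to 0.16 for Col25a1 and from -0.16 to 0.082 for Col27a1. In PFC at 4 weeks the opposite sign appeared with all 64 libraries (Col19a1 -0.016 and Col25a1 -0.036), without the extraction pool (Col19a1 -0.027 and Col25a1 -0.030), without a filter (Col19a1 -0.0083 and Col25a1 -0.012), with the GC and length correction (Col5a1 0.018, Col4a2 0.043, Col19a1 -0.011 and Col25a1 -0.044), with only the groups of the contrast (Col4a2 0.017), with the cage block (Col19a1 -0.019 and Col25a1 -0.029), with the cage block and the GC and length correction (Col4a2 0.016, Col19a1 -0.036 and Col25a1 -0.064) and with voom (Col5a1 0.014, Col4a2 0.014 and Col24a1 0.018). With 1 library left out there, the value ran from -0.15 to 0.051 for Col5a1, from -0.081 to 0.036 for Col4a2, from -0.057 to 0.16 for Col11a1, from -0.058 to 0.078 for Col19a1, from -0.20 to 0.090 for Col24a1 and from -0.031 to 0.072 for Col25a1. In hypothalamus at 3 h the opposite sign appeared without the extraction pool (Col24a1 0.029) and with voom (Col23a1 -0.035 and Col24a1 0.0010). With 1 library left out there, the value ran from -0.47 to 0.036 for Col3a1, from -0.041 to 0.13 for Col4a1, from -0.16 to 0.028 for Col19a1, from -0.050 to 0.15 for Col23a1, from -0.18 to 0.0056 for Col24a1 and from -0.063 to 0.15 for Col27a1. In hypothalamus at 4 weeks the opposite sign appeared without psilocybin mouse 5 of hypothalamus at 4 weeks (Col4a1 0.082), without a filter (Col4a2 -0.0083), with the GC and length correction (Col4a2 -0.017), with the cage block and the GC and length correction (Col4a2 -0.026) and with voom (Col1a2 -0.072, Col4a1 0.10 and Col23a1 -0.11). With 1 library left out there, the value ran from -0.087 to 0.28 for Col1a1, from -0.24 to 0.25 for Col1a2, from -0.045 to 0.49 for Col3a1, from -0.0053 to 0.20 for Col5a1, from -0.096 to 0.083 for Col4a1, from -0.067 to 0.097 for Col4a2, from -0.13 to 0.28 for Col19a1, from -0.15 to 0.19 for Col23a1, from -0.077 to 0.30 for Col24a1 and from -0.078 to 0.014 for Col27a1. Without removing the extraction pool, Col5a1 and Col5a2 in PFC gave r = -0.0234, Col8a1 and Col8a2 in hypothalamus 0.124, Col9a1 and Col9a2 in PFC 0.406 (permutation adjusted p = 0.0332) and Col11a1 and Col11a2 in hypothalamus 0.361 (permutation adjusted p = 0.0572). In the same setting Flt1 in PFC passed the threshold with Col4a1 (r = 0.381, permutation adjusted p = 0.0438) and Col4a2 (0.482, 0.00892), and Dcn in hypothalamus gave 0.392 with Col1a1 (permutation adjusted p = 0.0405). The cause of these shifts was not tested. Fits within pools and the marker correlations were added after seeing the data.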
